A study of Trametes cinnabarina with 16 samples.

Results

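Cultures of strain PB94 of the white-rot fungus Pycnoporus cinnabarinus, or Trametes cinnabarina, that grew on switchgrass were compared with cultures that were given no energy source (the control). The comparison takes the 3 libraries labelled switchgrass and the 3 labelled control, 6 of the 16 libraries of the series, chosen by their labels and not by their values. Both groups were grown in semi-minimal medium from an overgrown agar cube for at least 5 days, and RNA came from the whole organism. Both groups are of the same strain, so the stated differences are the substrate and the library preparation. Control libraries, like those of the cultures on soluble sugars, were made from poly-A RNA. Switchgrass libraries, like those on poplar wood, were made after removal of ribosomal RNA with a yeast depletion kit. Substrate and preparation changed together in all 6 libraries and cannot be told apart in any comparison of switchgrass with control. Whether each replicate was a culture of its own is not stated, so the spread behind the p-values may be technical only.

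White-rot fungi break down all the main polymers of plant cell walls, including lignin, by secreting oxidative enzymes such as laccases and peroxidases together with hydrolases that release sugars from cellulose and hemicellulose. Pycnoporus cinnabarinus is best known for its laccase and for the orange-red pigments it forms with it. Switchgrass is a perennial grass, and grass cell walls differ from those of wood in being rich in arabinoxylan that carries ferulic acid. A culture with no energy source has to live on what the inoculum and medium supply.

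Levels are TPM, a transcript abundance corrected for length that sums to 1000000 in each library. TPM keeps no read number, so the depth of every library is unknown, and a value of 0 is given only as listed at 0. Genes carry the identifiers of a transcriptome assembly. None of them matched the reference gene list (0 matches among 10441 genes), so no enzyme family can be named, the genes are described by level and count, and few identifiers are printed. The deposited tables give the same values under different column names. With the names of the second table, the columns called switchgrass would hold the values used here as control. The columns called control would hold those used as poplar, and the values used here as switchgrass would be called cellobiose. The 4 genes named first below would then change direction. Which names are right was not tested, and all statements on substrate and preparation rest on the names used.

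The switchgrass libraries were dominated by far fewer genes than the control libraries. The genes that together held 50% of TPM numbered 108, 89 and 10 in the first, the second and the third switchgrass library. They numbered 575, 600 and 514 in the control libraries. The groups did not overlap, and the third switchgrass library stood apart from the other two. Its most abundant gene alone held 27.3% of TPM, where the most abundant gene of the first held 4.61% and that of the second 4.27%. In the control libraries that share was 3.17%, 1.95% and 3.52%. Dominance by few genes was not particular to switchgrass. In the poplar libraries 20, 2 and 101 genes held 50% of TPM, and in the third maltose library 4 did.

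**Figure D1:**
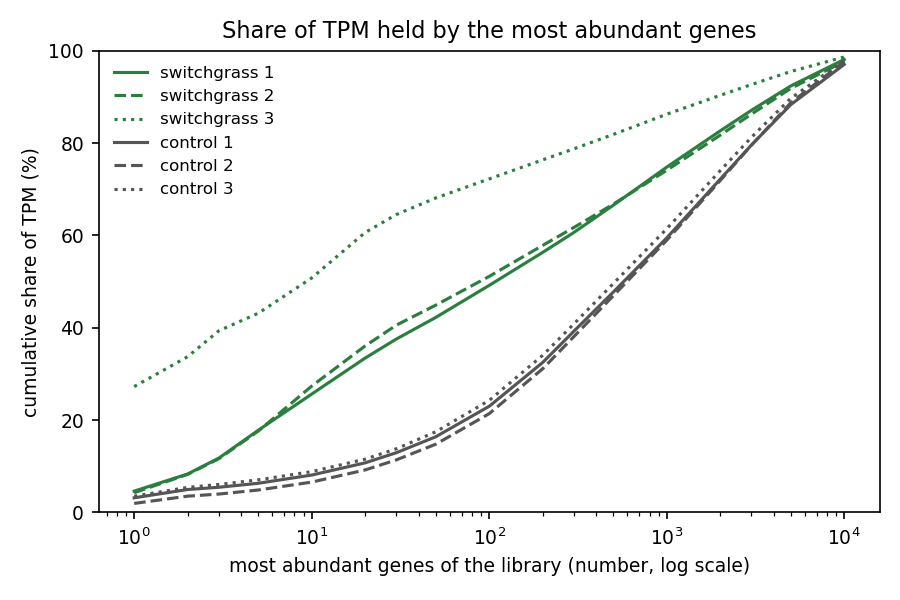
Cumulative share of TPM (percent, vertical axis) against the number of most abundant genes counted (log scale, horizontal axis), 1 line for each of the 3 switchgrass and 3 control libraries. The 100 most abundant genes held 49.2%, 51.1% and 72.2% of TPM in the switchgrass libraries and between 21.4% and 24.3% in the control libraries.

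The abundant genes were also different ones. The 10 genes with the highest mean on switchgrass held 25.2%, 27.4% and 48.5% of TPM in the switchgrass libraries and 0.332%, 0.193% and 0.267% in the control libraries. In the poplar libraries the same 10 genes held 32.7%, 58.9% and 28.3%. The 10 genes with the highest mean in control held 7.99%, 6.53% and 8.74% there and 2.19%, 1.70% and 3.73% on switchgrass. These lists were picked by level in the same libraries, so their contrast is a description. They shared 0 genes. The lists of 100 shared 25 genes and the lists of 1000 shared 511.

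Control libraries were much more alike than switchgrass libraries. Across the 17775 genes tested, which are not independent replicates, Spearman's rho lay between 0.946 and 0.959 for the 3 pairs of control libraries and between 0.745 and 0.797 for the 3 pairs of switchgrass libraries. Across the groups it lay between 0.594 and 0.679. Between switchgrass and poplar libraries it lay between 0.775 and 0.842, so switchgrass libraries were no more alike among themselves than with poplar. The median SD of a gene on the log2(TPM + 1) scale was 0.745 on switchgrass and 0.202 in control, and the switchgrass SD was the larger in 88.6% of genes. Genes listed at 0 made up 42.2%, 29.4% and 34.5% of the 27990 assembly genes in the switchgrass libraries, against 17.7%, 22.8% and 23.6% in the control libraries.

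A large part of the transcriptome differed between switchgrass and control. With TPM as deposited, 1165 genes (6.55% of the 17775 tested) rose on switchgrass and 5758 (32.4%) fell, by limma with Benjamini-Hochberg adjustment at an adjusted p under 0.05. The median log2 difference over all tested genes was -0.77, so most genes had lower TPM on switchgrass. Median-of-ratios scaling, which sets each library to the typical gene, brought that median to -0.09. It gave 2428 genes (13.7%) higher and 3388 (19.1%) lower. The balance between directions differed between the scalings, and the genes called with both are described below.

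With both scalings 1147 genes (6.45%) were higher on switchgrass and 3388 (19.1%) were lower. Scaling divided control levels by 1.355 to 1.406 and switchgrass levels by 0.4616 to 0.9375, so it could not lower any log2 difference. No gene could therefore be called higher as deposited and lower after scaling. The opposite pair of calls was found for 0 genes. All 3388 genes called lower after scaling were also called lower before it, a shared direction that this shift fixes. Another 1281 genes were called higher only after scaling. Over all tested genes and with TPM as deposited, the 3 switchgrass values lay above all 3 control values in 1833 genes (10.3%). They lay below them in 8052 (45.3%).

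Leaving out any control library reduced the calls by more than 1.5 times. With control library 1, 2 or 3 set aside, 576, 556 and 556 genes were higher and 2312, 2093 and 2313 lower as deposited. After scaling the corresponding counts were 1037, 970 and 969 higher and 1088, 1016 and 1081 lower. Without the first switchgrass library 684 genes were higher as deposited.

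**Figure D2:**
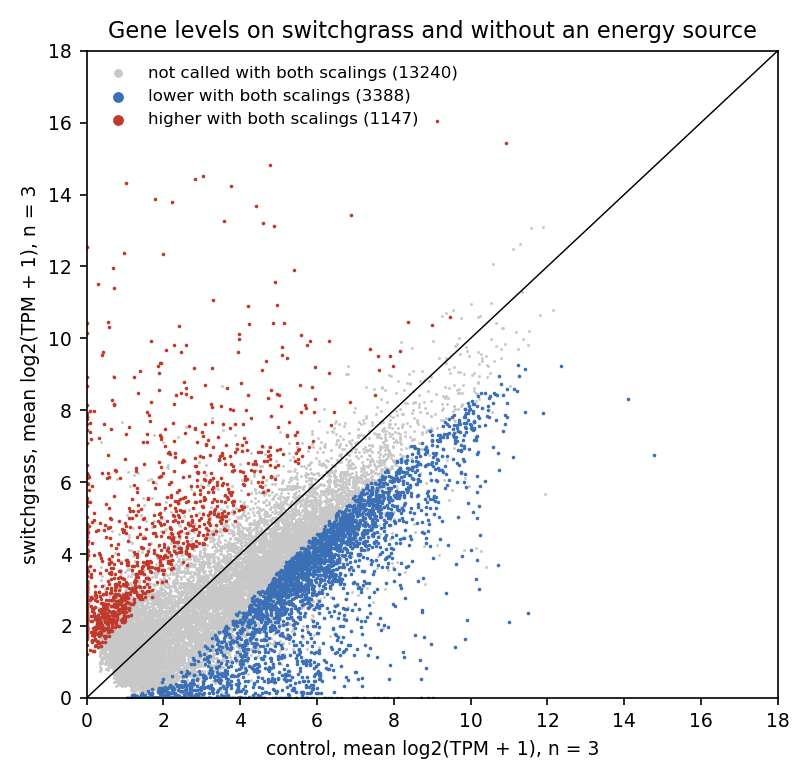
Mean log2(TPM + 1) of each of the 17775 tested genes in the 3 control libraries (horizontal axis) and the 3 switchgrass libraries (vertical axis), with the line of equal level. The 1147 genes called higher with both scalings (red) spread up to high switchgrass levels, and the 3388 called lower (blue) form a broad band below the line.

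Genes called higher carried much of the switchgrass RNA. The 1147 genes held 46.6%, 47.8% and 64.3% of TPM in the switchgrass libraries and 1.26%, 1.17% and 1.20% in the control libraries. Their median level was 23.6, 16.04 and 12.3 TPM on switchgrass and 1.59, 1.63 and 1.45 TPM in control. The 3388 genes called lower made up much of the control RNA. They held 50.7%, 50.3% and 50.5% of TPM in the control libraries and 9.72%, 9.64% and 5.19% in the switchgrass libraries. Their median level was 51.0, 50.6 and 43.8 TPM in control and 8.31, 9.43 and 5.25 TPM on switchgrass. These values describe genes selected for their difference and are no test of it.

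Some genes passed the filter on low values through 1 group alone and so had to differ. There were 458 with at least 1 TPM in every switchgrass library and less in every control library, and 924 with the reverse. Among the 10654 genes at 1 TPM or more in all 6 libraries, 565 (5.30%) were higher and 2314 (21.7%) lower with both scalings. The median log2 difference of the 565 was 2.27 as deposited and 3.06 after scaling, and that of the 2314 was -2.17 and -1.32. A difference of at least 16-fold as deposited was seen for 107 of the 565 rises and 95 of the 2314 falls, a larger share of the rises.

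The share of genes called lower grew with the level of the gene up to the most abundant class. Levels here are means over the 6 libraries. Under 10 TPM, 9.24% of 8810 genes were lower and 6.16% higher with both scalings. From 10 to 100 TPM, 26.2% of 7510 genes were lower and 5.99% higher. From 100 to 1000 TPM, 42.9% of 1364 genes were lower and 9.38% higher. Of the 91 genes at 1000 TPM or more, 26 were higher and 23 lower, so rises were about as many as falls in that class.

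The 4 genes named by rule are the largest log2 rises and falls among genes called with both scalings, at 1 TPM or more in all 6 libraries and without overlap between the groups. The assembly gives 1 transcript for each of them. TR18451__c0_g1 stood at 46126, 18681 and 12241 TPM on switchgrass and at 9.15, 3.8 and 6.07 TPM in control. It thus went from a level shared by many genes to at least 1.22% of all TPM in each switchgrass library. The group means were 25683 ± 17995 TPM (SD, n = 3) and 6.34 ± 2.69. The log2 difference was 11.61 ± 0.56 (SE, adjusted p = 4.23e-05) as deposited and 12.43 ± 0.44 (adjusted p = 4.40e-05) after scaling.

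TR8700__c0_g1 was at 6670.03, 22329 and 18767 TPM on switchgrass and at 3.22, 4.24 and 3.49 TPM in control. Its lowest switchgrass library was the first, the library in which TR18451__c0_g1 was highest. The log2 difference was 11.57 ± 0.49 (adjusted p = 2.82e-05) as deposited and 12.36 ± 0.61 (adjusted p = 0.000195) after scaling. In the poplar libraries TR18451__c0_g1 was at 21146, 10835 and 16441 TPM and TR8700__c0_g1 at 20227, 9372 and 2653 TPM. On the soluble sugars the highest level of either gene was in the glucose library, at 49.5 TPM for the former and 14.5 TPM for the latter.

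TR17256__c0_g1 showed the largest fall. It was at 2113, 4266 and 2600 TPM in control (2993 ± 1129) and at 1.24, 4.02 and 11.0 TPM on switchgrass (5.43 ± 5.04). The log2 difference was -9.12 ± 0.62 (adjusted p = 0.000174) as deposited and -8.27 ± 0.84 (adjusted p = 0.00198) after scaling. Of the 6 groups, control held its highest level, and the cellobiose, glucose and maltose means of 279, 576 and 641 TPM lay between those of control and switchgrass.

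TR13507__c0_g1 was the most abundant gene of the control group, at 31700.1, 19523 and 35200 TPM. On switchgrass it was at 5.72, 171 and 1081 TPM, a spread on the log2 scale that exceeds that of the other 3 genes, although no switchgrass value came near the control values. The log2 difference was -8.02 ± 1.62 (adjusted p = 0.00848) as deposited and -7.12 ± 1.97 (adjusted p = 0.0367) after scaling. After scaling its call was lost without the second switchgrass library (adjusted p = 0.0623) and with control library 1, 2 or 3 set aside (adjusted p = 0.106, 0.0981 and 0.110). It stayed abundant on cellobiose (21793 ± 970 TPM) and glucose (14921 TPM), was at 18411, 26457 and 205 TPM on maltose, and was at 2482, 579.6 and 29.1 TPM on poplar.

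**Figure D3:**
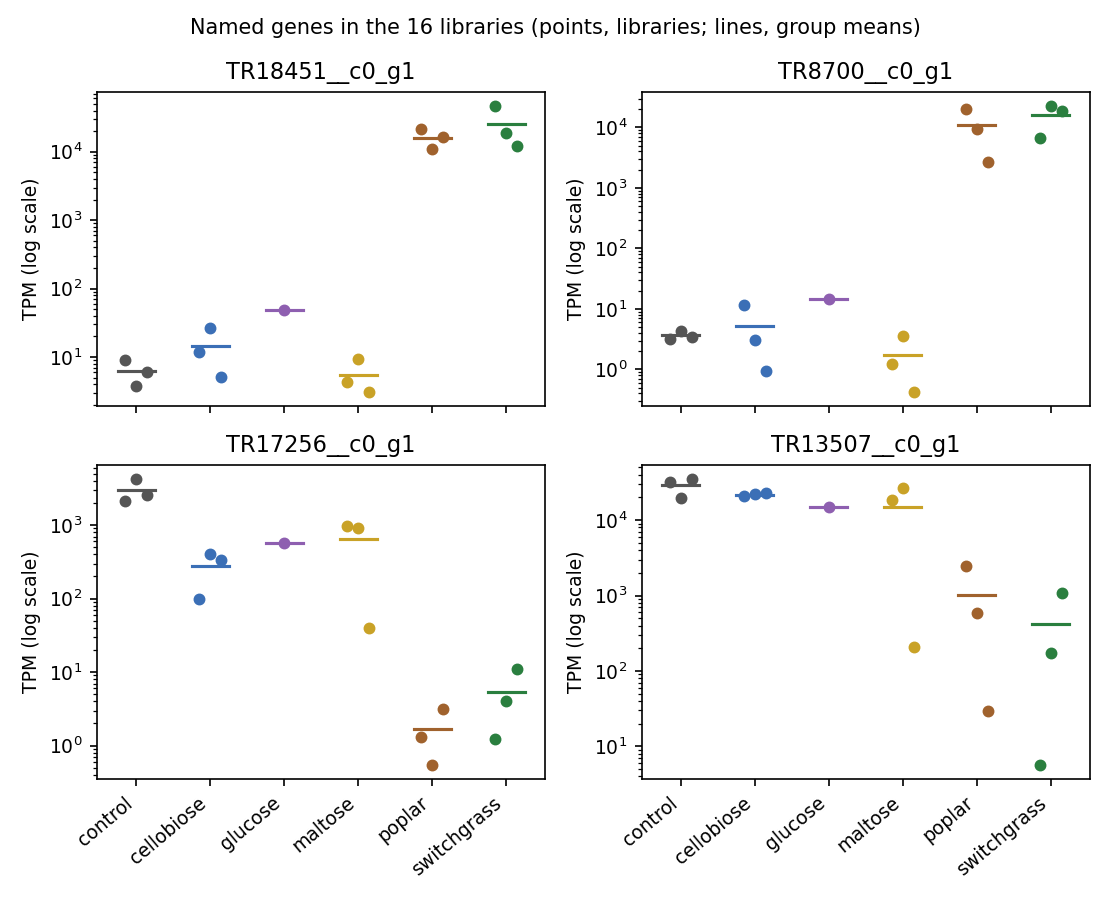
TPM (log scale) of the 4 named genes in the 16 libraries by substrate; points are libraries and lines are group means. The upper pair lies at 2653 TPM or more in every switchgrass and poplar library and under 50 TPM in the rest, and the lower pair has its highest mean in control and is lower on both plant substrates, with the third maltose library also low.

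A stricter set was formed by genes called in the same direction in all of 14 fits, with and without scaling, in the full data and with each of the 6 libraries left out. Of the 17775 genes tested in the full data, it held 296 higher and 913 lower on switchgrass. Fits with a library left out tested fewer genes, so a gene could also drop out through the filter. The values that follow describe genes selected for their difference and are no test of it. The 296 genes held 38.9%, 41.1% and 60.1% of TPM on switchgrass and 0.647%, 0.510% and 0.591% in control. Their median log2 difference was 3.50 as deposited and 4.27 after scaling, and 251 of them were at 1 TPM or more in all 6 libraries. The 913 genes held 21.2%, 22.8% and 21.7% of TPM in control and 3.50%, 3.35% and 1.85% on switchgrass, with median log2 differences of -2.74 and -1.89. TR18451__c0_g1, TR8700__c0_g1 and TR17256__c0_g1 belong to the set, and TR13507__c0_g1 does not.

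Some genes were listed at 0 throughout 1 group, and these had to differ. The switchgrass libraries list more genes at 0 than the control libraries do (29.4% to 42.2% against 17.7% to 23.6%), and at unknown depth the numbers for the groups are given with no comparison. At 1 TPM or more in all 3 switchgrass libraries and listed at 0 in all 3 control libraries were 132 genes, with a median of 9.07 TPM. Of these, 16 had a mean of at least 100 TPM and 3 of at least 1000 TPM, the highest at 6156 TPM. Together they held 1.64%, 1.39% and 1.07% of TPM there. In poplar 67 of the 132 were at 1 TPM or more in every library and 2 were listed at 0 in every library. In all 10 poly-A libraries 54 were listed at 0. Among the 10 are the 3 control libraries, at 0 by selection, and the third maltose library, which lists 55.3% of all genes at 0. The reverse pattern, listed at 0 in all 3 switchgrass libraries, was found for 504 genes, with a median of 3.95 TPM in control. Of these 504, 15 were at 100 TPM or more and 0 at 1000 TPM or more, the highest at 521 TPM. Of these, 150 were listed at 0 in every poplar library and 20 were at 1 TPM or more in every one.

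The libraries that did not enter the fit place these gene sets among the other substrates. The 1147 genes called higher had a median between 1.43 and 1.98 TPM in the cellobiose, glucose and first and second maltose libraries, close to the control values. In the poplar libraries it was 10.1, 4.38 and 17.6 TPM. The 3388 genes called lower had a median between 36.9 and 47.6 TPM in those 6 sugar libraries and of 6.08, 2.54 and 10.6 TPM in the poplar libraries. Over all tested genes the medians were between 8.73 and 10.04 TPM in the 6 sugar libraries and 4.29, 1.72 and 7.84 TPM in the poplar libraries. The third maltose library, in which 10 genes held 83.7% of TPM, departed from its group with medians of 0, 2.63 and 0.53 TPM for the 3 lists. Sugar libraries share the preparation of control and poplar libraries that of switchgrass, so these levels follow the preparation as well as the kind of substrate.

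**Figure D4:**
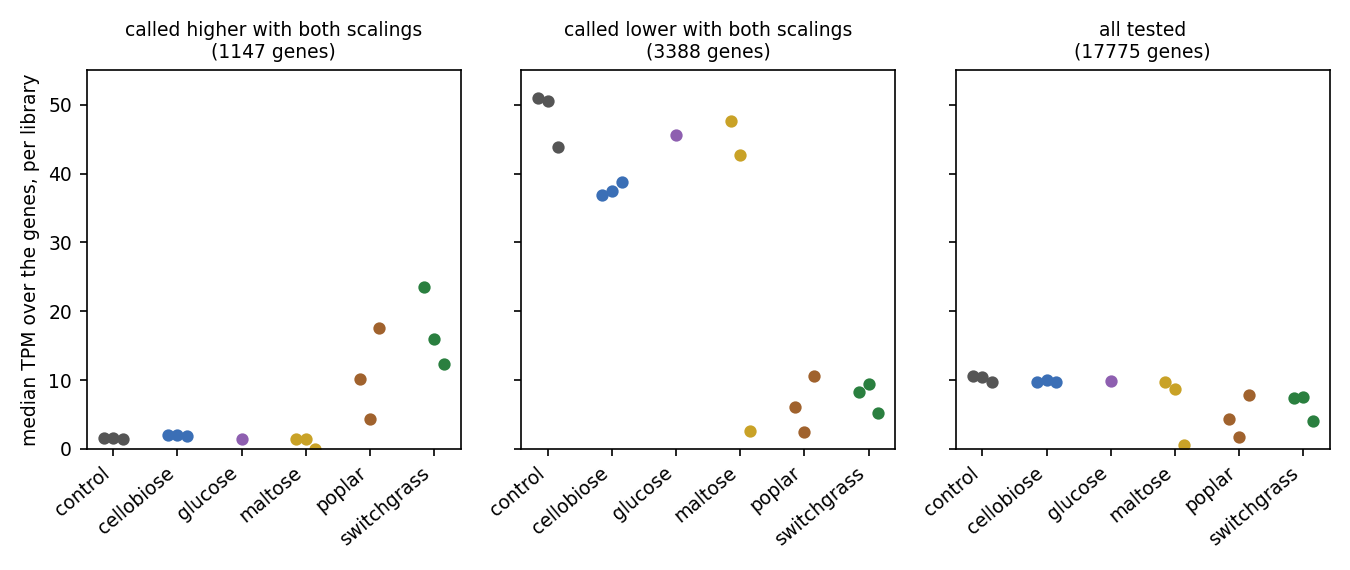
Median TPM per library over the genes called higher on switchgrass with both scalings (left), those called lower (middle) and all tested genes (right), by substrate; each point is 1 library. With the third maltose library set aside, the poly-A libraries sit at 1.43 to 1.98 TPM on the left and at 36.9 to 51.0 TPM in the middle, apart from the poplar and switchgrass libraries in both panels.

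Most genes called higher exceeded the sugar cultures too, with TPM as deposited, which is the scale of all counts in this paragraph. In 965 of the 1147 genes (84.1%) the lowest switchgrass value lay above the highest of 9 poly-A libraries, the third maltose library being set aside, against 6.95% of all tested genes. In 2946 of the 3388 genes called lower (87.0%) the highest switchgrass value lay below all 9, against 33.7% of all tested genes. With the third maltose library counted, these became 951 and 516 genes. The control libraries are among the 9 and helped to choose the genes, so the shares are descriptions. Each library holds RNA of a whole culture, in which fewer cells that make a transcript and less of it per cell cannot be told apart.

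Transcripts of the same gene shifted relative to each other in a smaller number of genes. Of 4060 genes with at least 2 transcripts at 1 TPM or more in 3 libraries, 196 (4.83%) differed in transcript use between switchgrass and control (limma diffSplice, adjusted p under 0.05), and 703 had an unadjusted p under 0.05. The gene itself was called with both scalings for 65 of the 196 (33.2%; 17 higher, 48 lower) and for 914 of all 4060 (22.5%). Setting aside control library 1, 2 or 3 gave 16, 15 and 16 genes, and setting aside switchgrass library 2 or 3 gave 347 and 369.

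The leading transcript was less stable on switchgrass. Among 3791 of these genes that reached 1 TPM in all 6 libraries, the most abundant transcript was the same in the 3 control libraries for 70.5% and in the 3 switchgrass libraries for 43.2%. It was steady within both groups in 1401 genes and differed between them in 121 (8.64%), of which 37 were among the 196. Over all 4060 genes tested 4.83% were called. The 121 were picked on the same transcript values, so part of this overlap is built in.

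The example with the lowest adjusted p among these 37, restricted to genes at 10 TPM or more in all 6 libraries and chosen after its values were seen, was TR2858__c1_g1, which has 3 transcripts. Its second transcript made up 69.7%, 74.5% and 82.4% of the gene's TPM on switchgrass and 3.07%, 3.44% and 2.89% in control. The third made up 74.6%, 71.0% and 75.3% in control and 24.6%, 17.6% and 10.6% on switchgrass. In TPM the second transcript was at 48.0, 77.9 and 47.8 on switchgrass and 5.91, 7.06 and 5.63 in control (adjusted p of the gene's transcript use = 4.52e-06). The next was TR8092__c0_g1. Its second transcript, at 97.6%, 97.7% and 96.7% of the gene in control, fell to 2.32%, 9.56% and 3.70% on switchgrass, and the first held 63.2%, 73.3% and 68.6% there (adjusted p = 1.32e-05). The groups did not overlap for any of these shares, but both genes were chosen for such a difference, so this is no test of it. In the poplar libraries the second transcript of TR2858__c1_g1 held 85.6%, 75.1% and 77.3%, and that of TR8092__c0_g1 held 4.46%, 9.87% and 19.1%.

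**Figure D5:**
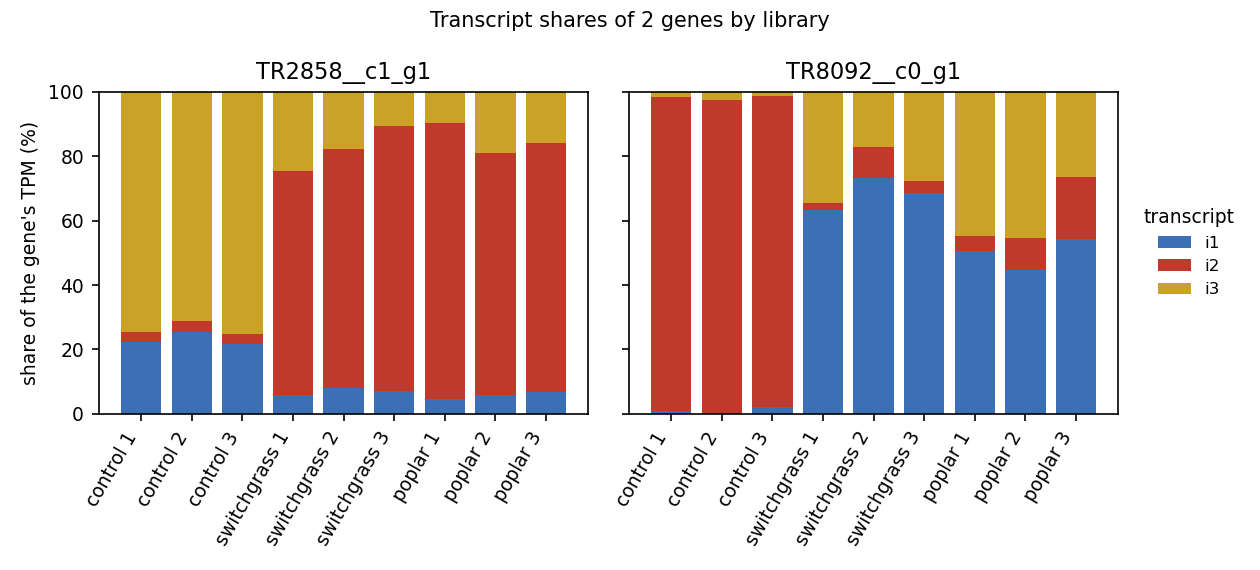
Share of the gene's TPM (percent) held by each of the 3 transcripts of TR2858__c1_g1 (left) and TR8092__c0_g1 (right) in the 3 control, 3 switchgrass and 3 poplar libraries. The transcript that held 71.0% to 75.3% (left) or 96.7% to 97.7% (right) in control was in the minority in every plant library.

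Poplar, the other plant substrate, was used to ask where switchgrass differs from wood under the same preparation. As deposited, 25 genes differed (0.148% of 16875 tested; limma, adjusted p under 0.05), 19 higher and 6 lower on switchgrass. After scaling 1 gene did (0.00593%). At an unadjusted p under 0.05 there were 641 genes as deposited and 848 after scaling, of the 16875 tested. These counts are below or about what that threshold passes when nothing differs. The fit is no test of likeness, so few calls do not show that the substrates acted alike. The gene called with both scalings, named after its values were seen because it was the only one, was TR7964__c0_g1. It was at 108, 98.98 and 66.9 TPM on switchgrass, at 1.33, 0.14 and 0.70 TPM on poplar and at 20.1, 28.1 and 14.4 TPM in control, so switchgrass lay above control and poplar below it. The log2 difference between the plant substrates was 5.78 ± 0.91 (adjusted p = 4.33e-06) as deposited and 5.41 ± 0.34 (adjusted p = 0.0231) after scaling. As deposited, this fit took the spread of each gene from the trend with level. Its SE and p therefore do not reflect the gene's own replicates, and the same holds for all 25 calls. Among the 19 higher genes 9 were also higher than control with both scalings and 1 was lower than control. Over all genes tested against control these shares were 6.45% and 19.1%, and both comparisons use the same switchgrass libraries, so part of the overlap is built in. In place of 25 there were 5, 1 and 236 genes when poplar library 1, 2 or 3 was set aside, and 5 and 9 when switchgrass library 1 or 2 was.

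The comparisons of switchgrass and of poplar with control use the same control libraries, so their values are only set side by side. For the 1147 genes called higher on switchgrass the median log2 difference from control was 2.23 on switchgrass and 1.82 on poplar as deposited, and 2.92 and 2.90 after scaling. For the 3388 genes called lower it was -2.28 on switchgrass and -2.65 on poplar as deposited, and -1.54 and -1.40 after scaling. Against poplar directly, 9 of the 1147 and 3 of the 2589 genes called lower that could be tested were called as deposited, where 0.148% of all genes tested were, and 1 and 0 after scaling. The shares of 0.785% and 0.116% describe lists chosen on the same switchgrass libraries.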

How the data were processed

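The authors deposited TPM values for 45286 assembled transcripts in 16 libraries, in a pair of tables with identical values. The table named for estimated counts also holds TPM, since every column sums to 1000000 within 0.87. Its column names were used. Per the submitters' processing notes RSEM was used. Its version and the assembler were not given in the sources used here. Members and lists were chosen with earlier results of these data known.

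Transcripts were summed to 27990 genes by assembly identifier. Genes with at least 1 TPM in at least 3 of the 6 libraries compared were tested on the log2(TPM + 1) scale with limma 3.58.1 in R 4.3.3, with a trend of variance on level. The fit took those 6 libraries only, as 2 group means. This pseudocount understates changes of low genes. Adjustment was by Benjamini-Hochberg over all genes tested, with calls at 0.05. Each test was repeated after median-of-ratios scaling, from the 12882 genes above 0 in all 6 libraries for switchgrass and control, with the same genes tested. Transcript use was tested with limma's diffSplice. The fits assume equal spread in both groups. With 3 libraries against 3 an exact test cannot give a p below 0.1, so none was run. The scripts were tested on simulated data with the same spread in both groups. That setting differs from these libraries, so it does not show the error rate of the calls. The named genes were the 2 largest rises and the 2 largest falls by the rule given with them. Alternatives covered the pseudocount, filters, scaling, the libraries fitted, weights, a replicate block, a test against a 2-fold change, the second table's names and each library left out.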

Additional observations from a re-analysis of the deposited data

Results flagged for a closer look

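Switchgrass and poplar, the plant substrates with the same preparation, were compared directly, and 25 genes differed as deposited (limma, adjusted p under 0.05), of which 1 also differed after scaling. The calls as deposited took the spread from the trend with level and not from each gene's own libraries. The 6 genes lower on switchgrass had medians of 0, 0 and 57.9 TPM in the switchgrass libraries and 215, 19.6 and 105 TPM in the poplar libraries, and the 19 higher genes had medians of 43.7, 98.98 and 66.9 TPM on switchgrass and 5.22, 0.14 and 1.11 TPM on poplar. In control the 19 had medians of 25.5, 18.4 and 20.1 TPM and the 6 had medians of 0.925, 2.33 and 0 TPM.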

How the results depend on the processing

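Against 1165 genes higher and 5758 lower, 2428 and 3388 were called with median-of-ratios scaling, 1974 were higher with the 10 most abundant genes of each library left out, 624 and 1137 were called in a fit to all 16 libraries, 389 and 1508 when tested for more than a 2-fold change, and 6632 and 855 under the second table's names. Leaving out 1 library gave 556 to 1421 higher and 2093 to 7416 lower as deposited, and 969 to 3056 and 1016 to 4454 with scaling, an alternative chosen after seeing the data. Of the latter, 1956, 3056 and 2187 higher and 3201, 4454 and 3823 lower were without switchgrass library 1, 2 and 3, and 1088, 1016 and 1081 lower without control library 1, 2 and 3. A pseudocount of 0.1, other filters and array weights kept both counts within 1.5 times. So did a fit to 15 libraries, all but the third maltose library, with 1225 higher and 5632 lower. The replicate block gave 1162 and 5171, and with scaling, added later, 1458 and 1960. Deviations of same-numbered libraries from their group means correlated at -0.0198, -0.00438 and -0.097, and those of differently numbered libraries between -0.0818 and 0.114. Deviations from a group mean are tied to each other, so whether same-numbered libraries share a batch cannot be told from these values.

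Transcript use was called for 196 genes, 70 with at least 5 TPM in 3 libraries, 100 with the replicate block and 15 to 369 with a library left out. The 25 genes against poplar became 1 with scaling, 4 with a pseudocount of 0.1, 2 with the replicate block and 1 to 236 with a library left out. Under the second table's names the log2 differences reversed to -11.12 for TR18451__c0_g1, -10.75 for TR8700__c0_g1, 10.19 for TR17256__c0_g1 and 6.31 for TR13507__c0_g1. Fits with a library left out hold fewer samples, yet some of them gave more calls than the full fit. The cause of the changes was not tested for any setting. Depth is unknown, so no counting error could be given.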

Other observations

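Some genes share a component of the assembly, given by the first part of the identifier. The tested genes came from 13619 components. Of the genes called with both scalings in switchgrass against control, 414 components held at least 2. Within them 737 pairs of genes were called in the same direction and 30 in opposite directions. Most calls were lower (3388 against 1147 higher), so many pairs would share a direction in any case. The share for pairs from different components was not computed. Genes of 1 component are not independent of each other.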
